A study of Mus musculus with 20 samples.

Results

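Livers of 19–21-week-old Titan mice were compared with livers of 11-week-old Titan mice. The comparison held 10 of the 20 mice of the series, 5 at each age, chosen by line and age alone as the sample labels give them. Titan is an outbred mouse line bred over many generations for high body mass, which becomes giant and obese. The other 10 mice were controls of the unselected FZTDU line, from which Titan was derived, 5 at 11 weeks and 5 at 19–21 weeks. All 20 were males kept on standard breeding feed, and RNA of whole liver was sequenced after depletion of rRNA. Titan mice are not inbred, so mice of one group differ in genotype, and the exact age within 19–21 weeks of a single mouse is not given in the sources used here. The groups hold different mice at each age, and age cannot be told apart from anything else that differed between the 2 sets, such as birth cohort.

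The liver turns surplus carbohydrate into fatty acids. Glycolytic and fructose enzymes supply acetyl-CoA, which acetyl-CoA carboxylase, fatty acid synthase and the fatty acid elongases build into fat under the transcription factors SREBP-1c and ChREBP. A second programme of the liver is sex-biased: the pulses of growth hormone in male mice act through STAT5b to keep male-biased genes on and female-biased genes, several of them cytochrome P450s, off.

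Libraries of 11-week Titan mice held 10465526 to 23295028 reads on genes and those of 19–21-week Titan mice 6794935 to 11464698, and 18.4% to 34.7% and 25.2% to 42% of their uniquely mapped reads lay outside genes. Values are CPM, the counts of a gene scaled to a common library size with the TMM factors of edgeR. Hepatocyte markers were present in every Titan mouse, summing to 86777 to 105786 CPM at 11 weeks and 78741 to 96434 CPM at 19–21 weeks over the 7 markers tested, albumin (Alb) leading them. None of the tested markers of 10 cell types passed the test for age, but some types could hardly be assessed. Tested were 1 of 10 exocrine pancreas, 2 of 7 adipocyte, 3 of 11 monocyte and neutrophil and 3 of 12 lymphocyte markers. The pancreas marker tested, Cela1, had an adjusted p of 0.0538 in edgeR. Of 7 adipocyte markers Lep and Ucp1 had no read, and Adipoq, Plin1 and Retn had at most 3 reads in a Titan library. The other two had more, Cfd up to 57 reads and Adrb3 from 20 to 212. The 10 markers of Kupffer cells, the resident macrophages, summed to 182 to 263 CPM at 11 weeks and 125 to 366 CPM at 19–21 weeks, highest in 19–21-week mouse 1, whose library was also the smallest. In whole tissue fewer cells of a type and less RNA per cell cannot be told apart.

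At 19–21 weeks the Titan liver had less mRNA than at 11 weeks of 10 of 28 genes of fatty acid synthesis, among them Acaca, Elovl6 and Pnpla3, of 5 of 24 genes of sugar breakdown and of 6 of the 16 female-biased genes that could be tested. The last count does not describe all 27 female-biased genes listed, since a gene near absent elsewhere passes the filter on reads through the group where it is high. At 19–21 weeks there was also a change in the other direction. The older Titan liver had more mRNA of Cyp7b1, Npr2, Serpine2 and Cyp2e1. Of 13783 genes tested, 172 passed an adjusted p of 0.05 in edgeR's quasi-likelihood test, which is 1.25% of those tested. They divided into 67 that rose (0.486%) and 105 that fell (0.762%), with median log2 fold changes of 0.88 and -0.92 against 0.02 over all genes tested. Of the 172 genes, 150 are annotated as protein-coding. The 5 mice of one age lay wholly above the 5 of the other for 101 of the 172 genes, where 2.97% of all tested genes showed such a separation. The 172 were called on these same values, so a higher share among them is built in and is no separate evidence. The number of calls depended on single mice. Without 11-week mouse 1, 2 or 5 the genes that rose and fell numbered 13 and 30, 12 and 23, and 16 and 31, and without 19–21-week mouse 1 they numbered 15 and 30. Without 11-week mouse 4 they numbered 182 and 232, without 19–21-week mouse 3 the genes that rose numbered 32, and without 19–21-week mouse 5 those that fell numbered 62.

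**Figure D1:**
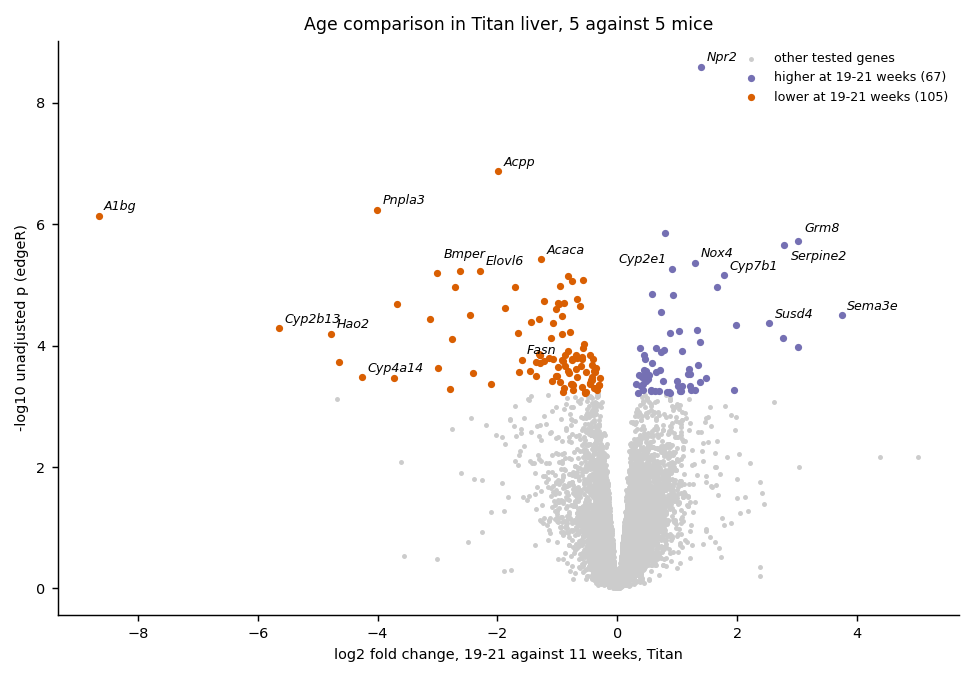
Each point is one of 13783 genes, with the log2 fold change from 11 to 19–21 weeks in Titan liver on the x axis and the unadjusted p of the edgeR test, as its negative log10, on the y axis. The 67 genes that rose are purple and the 105 that fell are orange, and A1bg lies farthest to the left.

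Npr2, which encodes the receptor of C-type natriuretic peptide, had the smallest p of all genes. Its level was 20.2, 13, 18.2, 20.1 and 21 CPM in 11-week mice 1 to 5 and 58.6, 45.7, 53.1, 43.1 and 44.1 CPM in 19–21-week mice 1 to 5, a log2 fold change of 1.40 ± 0.14 (SE, 5 mice a side, adjusted p = 3.51e-05 in edgeR). All 5 older mice stood above all 5 younger ones, and above the controls of both ages, which ranged from 20.3 to 32.9 and 31.1 to 42.4 CPM. Serpine2, a secreted inhibitor of serine proteases, stood at 4.27, 3.67, 4.96, 6.25 and 2.90 CPM at 11 weeks and 42.3, 21.6, 28, 25.9 and 31 CPM at 19–21 weeks (log2 fold change 2.77 ± 0.43, adjusted p = 0.0044 in edgeR). The lowest older mouse was over 3 times the highest younger one. Control mice, with 3.86 to 10 and 2.90 to 21.8 CPM at the 2 ages, overlapped the young Titan mice, and 1 older control mouse (21.8 CPM) stood just above the lowest older Titan mouse (21.6 CPM).

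Nox4, an NADPH oxidase that makes hydrogen peroxide, and Cyp2e1, the ethanol-oxidising P450 of the pericentral hepatocyte, also separated the ages. Nox4 stood at 18.9, 19.8, 20.3, 41.6 and 13 CPM at 11 weeks, with mouse 4 apart from the other four, and at 56, 61, 45.2, 54.6 and 59.4 CPM at 19–21 weeks (log2 fold change 1.30 ± 0.21). For Cyp2e1 the 11-week mice had 1544, 1826, 2354, 2992 and 2031 CPM and the 19–21-week mice 4742, 3961, 4544, 3163 and 3874 CPM (log2 fold change 0.92 ± 0.15). The younger Titan mice lay below every control mouse for Cyp2e1 and Nox4, and the older ones inside or close to the control range (3485 to 4537 CPM for Cyp2e1 and 51.6 to 79 CPM for Nox4 in 19–21-week controls). The metabotropic glutamate receptor gene Grm8 rose from 0.207, 0.156, 1.61, 0.993 and 0.252 CPM to 4.62, 1.56, 7.90, 4.22 and 6.20 CPM. The younger mice ran from near absence to 1.61 CPM and overlapped the older group at its lowest mouse. Of the other genes with the 12 smallest p-values among those that rose, Gnai1 (an inhibitory G protein), Gpld1 (a phospholipase that cleaves lipid-anchored proteins off the membrane), Sema3e (a semaphorin), Dmac2 (an assembly factor of respiratory complex I), Gm4756 and Gm37902 had log2 fold changes from 0.57 to 3.75. Sema3e lost its call without 11-week mouse 1, 2 or 5, with adjusted p-values of up to 0.056 in edgeR.

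Among the genes that fell, the phosphatase gene Acpp had the smallest p. Its 11-week values were 28.7, 27.3, 18.8, 12.1 and 30.1 CPM and its 19–21-week values 4.49, 6.35, 6.56, 3.96 and 7.99 CPM (log2 fold change -1.99 ± 0.25, adjusted p = 9.19e-04 in edgeR). Control mice had at most 0.0844 CPM at 11 weeks and 0.264 CPM at 19–21 weeks, so the older Titan mice still lay above every control. Slc16a1, the monocarboxylate transporter MCT1, went from 169.7, 192, 140.3, 136 and 179 CPM to 72.3, 75.6, 100.1, 112 and 99 CPM (log2 fold change -0.83 ± 0.14). Lrpap1, a chaperone of the LDL receptor family, averaged 60.2 ± 8.36 CPM at 11 weeks and 40.4 ± 3.32 CPM at 19–21 weeks (mean ± SD of 5 mice), without overlap of the groups. Bmper (a modulator of bone morphogenetic protein signals), Lhx6 (a LIM-homeobox factor), Morc4 and the non-coding transcript Gm6135 complete the set outside metabolism, with log2 fold changes between -3.02 and -0.96.

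Fatty acid and triglyceride synthesis held the most calls of any of the 21 gene lists examined. Of its 28 genes, all tested, 10 fell and none rose, 25 had a fold change below 0, and the median log2 fold change was -0.72 against 0.02 over all tested genes. Over all tested genes 0.762% fell and 0.486% rose. The gene lists were chosen with earlier results of these data known. The 10 were Acly (ATP citrate lyase, the source of cytosolic acetyl-CoA), Acaca, Fasn, the elongases Elovl5 and Elovl6, Me1 and Pgd (suppliers of NADPH), Acsl5 (which activates fatty acids), Gpam (the first step of triglyceride synthesis) and Pnpla3 (a lipid droplet protein induced with lipogenesis). Of these, 5 (Acaca, Fasn, Elovl5, Elovl6 and Acsl5) are among the 18 tested genes that the study picked out for liver from these same libraries, so their inclusion is not independent of these data. Cyp7b1 was the only one of those 18 that rose, and the other 12 did not pass.

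Acaca, the rate-limiting enzyme of the pathway, stood at 234, 205, 114, 81.2 and 153 CPM in 11-week mice 1 to 5 and 46.3, 77.4, 74.7, 57.3 and 70.4 CPM in 19–21-week mice 1 to 5 (log2 fold change -1.27 ± 0.20, adjusted p = 0.00646 in edgeR). Young mice 1 and 2 were high and mouse 4 only just above the older group. Elovl6 ran from 149 to 872 CPM within the younger group (872, 750.0, 231, 149 and 381) and stood at 52.2, 128, 119.8, 57.9 and 129 CPM in the older one (log2 fold change -2.29 ± 0.38). The difference between the highest and lowest young mouse was therefore larger than that between young mouse 4 and the older mice. Pnpla3 showed the largest fall of the list, from 43, 21.7, 11.9, 11.5 and 30.2 CPM to 0.136, 2.34, 1.22, 1.18 and 2.12 CPM (log2 fold change -4.01 ± 0.56, adjusted p = 0.00249 in edgeR).

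Fasn counted 4117, 3219, 2058, 1467 and 2473 CPM at 11 weeks and 456, 1103, 1066, 640.3 and 1138 CPM at 19–21 weeks (log2 fold change -1.60 ± 0.35, adjusted p = 0.0297 in edgeR). The groups did not overlap, and the older Titan mice lay within the span of the controls, 394 to 1427 CPM at 11 weeks and 694 to 1722 CPM at 19–21 weeks. Scd1, the stearoyl-CoA desaturase, did not pass (adjusted p = 0.154 in edgeR) although its groups did not overlap, with 29616, 33012, 16766, 14569.8 and 24175 CPM against 482, 13052, 14372, 4272 and 10793 CPM. Older mouse 1 stood far below the other four for Scd1. The transcription factor genes Srebf1 and Mlxipl, which encode SREBP-1c and ChREBP, had log2 fold changes of -0.75 ± 0.29 and 0.13 ± 0.12 and did not pass.

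The count of 10 rested on several mice. It was 3 without 11-week mouse 1, 2 or 5 or without 19–21-week mouse 4, and 4 without 19–21-week mouse 1. Acaca, Elovl6 and Pnpla3 kept their calls in every alternative in which they were tested, and Fasn lost its own without 11-week mouse 1, 2 or 5 or 19–21-week mouse 1 or 4, with adjusted p-values of up to 0.1 in edgeR.

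**Figure D2:**
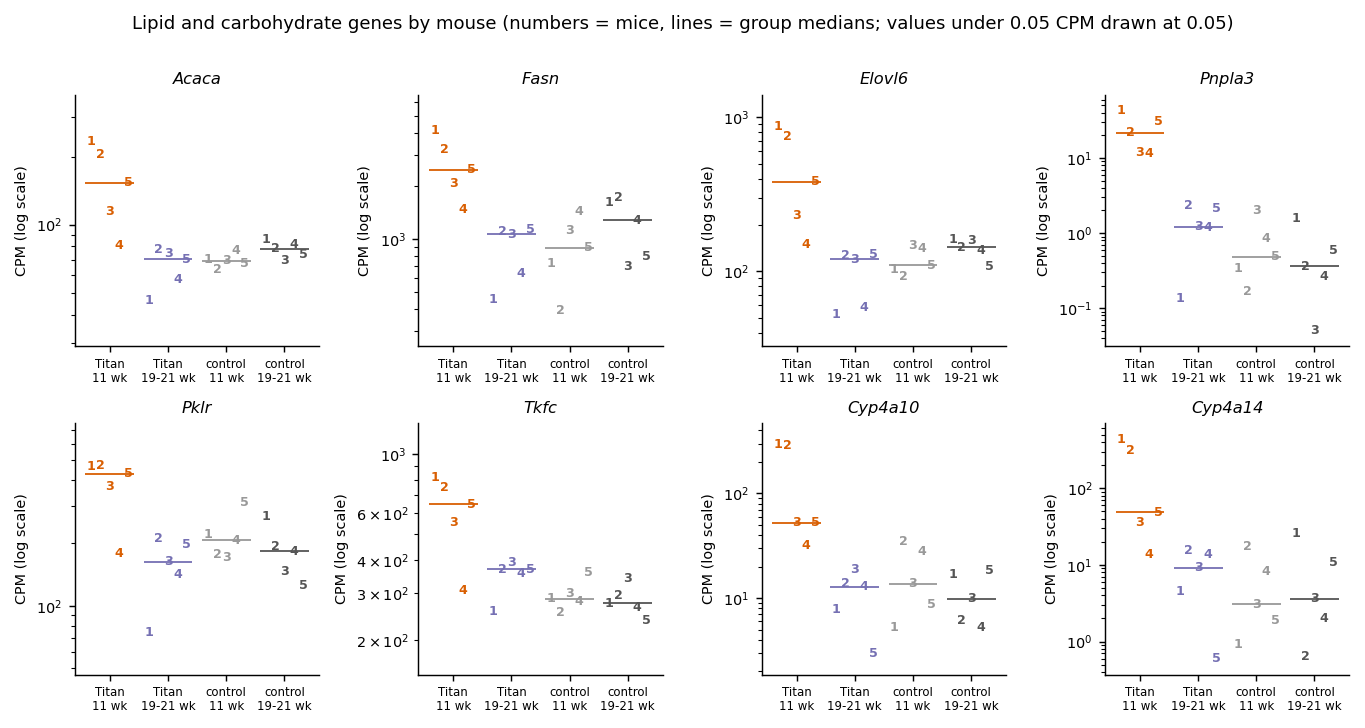
Levels in CPM on a log axis of 8 genes of fatty acid synthesis, sugar breakdown and fatty acid hydroxylation in each of the 20 mice, drawn as mouse numbers, with a line at each group's median. In the 11-week Titan group mice 1 and 2 lie at the top and mouse 4 at the bottom for Acaca, Fasn, Elovl6, Cyp4a10 and Cyp4a14, and the older Titan mice lie near the 2 control groups.

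Some enzymes that feed this pathway from sugar fell as well. In the list of glycolysis, fructose and pyruvate use 5 of 24 genes fell and none rose (median log2 fold change -0.24), Gpi1, Pklr, Tkfc and Eno1 among them. Over all tested genes 0.762% fell. Pklr, the liver pyruvate kinase, stood at 466, 469, 373, 179 and 430.5 CPM at 11 weeks and 74.8, 210.5, 163, 141 and 196 CPM at 19–21 weeks (log2 fold change -1.29 ± 0.28, adjusted p = 0.0284 in edgeR). Young mouse 4 lay inside the older group and the other young mice above it. Tkfc, which phosphorylates the glyceraldehyde made from fructose, stood at 813, 747, 555, 307 and 647 CPM and 257, 369, 392, 357 and 369 CPM (log2 fold change -0.82 ± 0.18). The count of 5 was 1 without 11-week mouse 1, 2 or 5 or 19–21-week mouse 1, 3 without 19–21-week mouse 3, 4 or 5, and 8 without 11-week mouse 4. No gene of the list passed when the Titan mice were fitted alone.

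The list of gluconeogenesis and glycogen held 3 genes that fell among 21 (median log2 fold change -0.24): Fbp1, Pcx and Pygb. The share that fell over all tested genes was 0.762%. Fbp1, the fructose bisphosphatase that runs against glycolysis, was at 1268, 1122, 832, 635 and 906 CPM and then at 388, 620.0, 543, 612 and 587 CPM (log2 fold change -0.79 ± 0.16). Pcx, which turns pyruvate into oxaloacetate for glucose as well as for fat synthesis, had a log2 fold change of -0.60 ± 0.13, and the glycogen phosphorylase gene Pygb, most of whose product is found outside liver, one of -0.75 ± 0.13. Without 11-week mouse 1 or 2 or 19–21-week mouse 1 only 1 of the 3 passed.

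Cyp4a10 and Cyp4a14, fatty acid hydroxylase genes known as targets of the fatty acid sensor PPARα, were the only ones of 28 genes of fatty acid oxidation and ketogenesis to fall (median log2 fold change -0.21, 25 of 28 below 0). Over all tested genes 0.762% fell. Cyp4a10 stood at 292, 286, 52.5, 31.8 and 52.6 CPM at 11 weeks and 7.75, 13.8, 18.7, 12.8 and 2.97 CPM at 19–21 weeks (log2 fold change -3.68 ± 0.67, adjusted p = 0.00988 in edgeR). Cyp4a14 stood at 436, 305, 36.1, 13.6 and 48.3 CPM and 4.49, 15.4, 9.12, 13.6 and 0.595 CPM (log2 fold change -4.27 ± 0.99, adjusted p = 0.0376 in edgeR). Young mice 1 and 2 carried these levels, each at more than 5 times the next young mouse. The Cyp4a14 call was lost without 11-week mouse 1, 2 or 5 or any one of the 5 older mice, with adjusted p-values of up to 0.13 in edgeR. Members of the Cyp4a family have near-identical copies next to each other, and reads that mapped to several places were not counted. The mitochondrial and peroxisomal oxidation enzymes did not pass. At an unadjusted p of 0.05 in edgeR, 13 of the 28 genes of the list were lower and 0 higher. Of all tested genes 7.30% were lower at that limit.

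**Figure D3:**
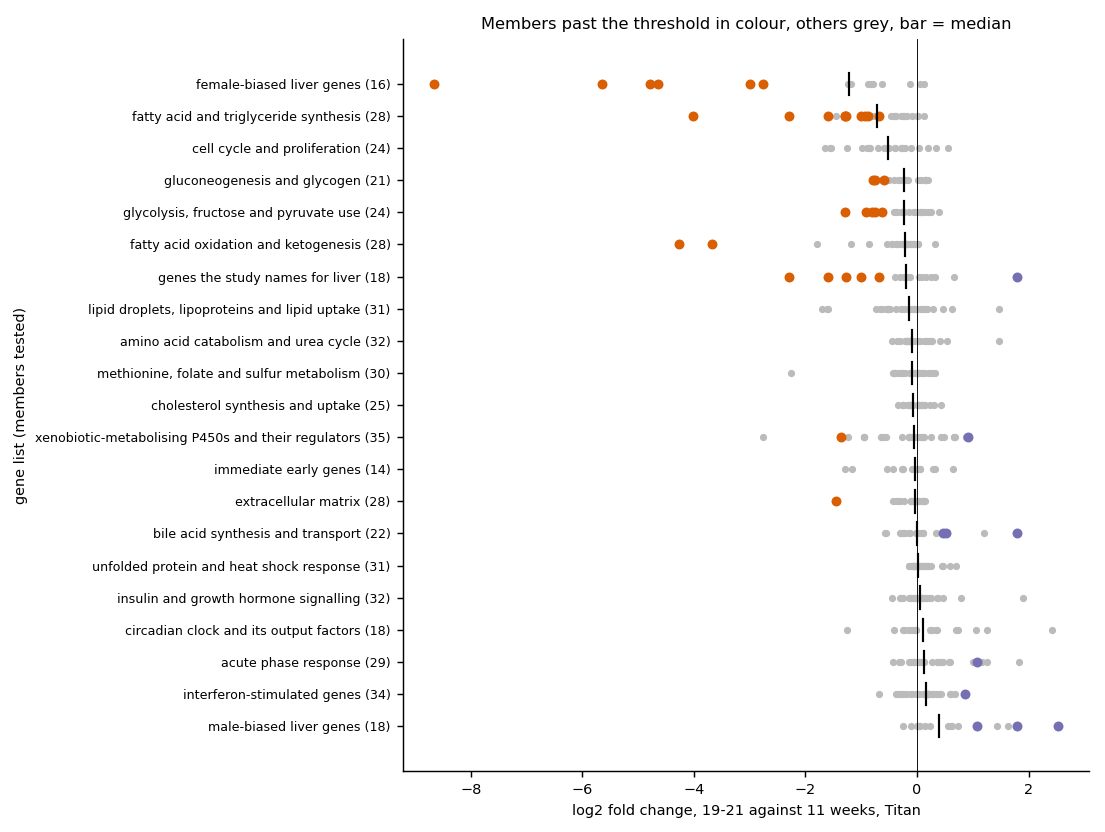
The log2 fold change from 11 to 19–21 weeks in Titan liver of every tested member of 21 gene lists, ordered by the list median (black bar), with the number of members tested in brackets. Members past the threshold are purple where higher and orange where lower at 19–21 weeks, and others are grey. The median is -0.72 for fatty acid synthesis and 0.40 for male-biased genes, and that of female-biased genes, -1.22, covers only the 16 of 27 members that passed the filter on reads.

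Some female-biased genes fell and a few male-biased genes rose, and several of the female-biased ones differed widely among the young mice. Of 27 female-biased genes 16 had enough reads to be tested. Of these, 6 fell (A1bg, Cyp2b9, Cyp2b13, Hao2, Acot3 and Nipal1), none rose, and the median log2 fold change of the 16 was -1.22. A gene that is near absent elsewhere passes the filter on reads through the one group where it is high, so neither this count nor the median describes all 27. Of 18 male-biased genes tested, 3 rose (Cyp7b1, Susd4 and Gstp1), none fell, and the median was 0.40. Over all tested genes 0.762% fell and 0.486% rose.

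A1bg, which encodes a secreted glycoprotein made in female but hardly in male mouse liver, stood at 891, 1059.9, 7.01, 6.25 and 860.2 CPM in 11-week mice 1 to 5. In 19–21-week mice 1 to 5 it stood at 0.544, 2.15, 1.82, 1.18 and 1.19 CPM. Young mice 1, 2 and 5 were thus over 100 times above young mice 3 and 4, which were themselves above all older mice. The fitted log2 fold change was -8.65 ± 1.23 (adjusted p = 0.00249 in edgeR), and control mice had at most 1.73 CPM. The 300 bases around the A1bg start site annotated by RefSeq, on GRCm38.p6 at chr15:60921221-60921520 on the minus strand, are shown because A1bg had the widest spread of the sex-biased genes among the young mice. Capitals mark the only match to TTCNNNGAA, the palindrome that STAT5 proteins bind, searched on both strands, where it reads the same.
A1bg: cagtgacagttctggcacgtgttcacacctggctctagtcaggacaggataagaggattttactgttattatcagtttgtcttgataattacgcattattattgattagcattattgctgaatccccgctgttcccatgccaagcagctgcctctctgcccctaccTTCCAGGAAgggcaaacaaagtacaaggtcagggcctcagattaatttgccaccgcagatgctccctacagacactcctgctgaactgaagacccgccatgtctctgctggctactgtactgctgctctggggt
The window ran from 250 bases before to 50 bases after the start site, and lies inside the longer A1bg gene model of GENCODE (chr15:60896859-60923012). The match was present in 8.3% of all 32851 such windows, and in 1 of the 8 sex-biased genes past the threshold for which RefSeq had a window. It is a match of letters, with no measurement of binding.

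Cyp2b9 and Cyp2b13, neighbouring P450 genes of nearly the same sequence that are expressed in female liver, followed the same mice. Cyp2b9 was at 273, 280.0, 43.3, 8.14 and 241 CPM at 11 weeks and 2.99, 7.03, 1.58, 18.5 and 2.21 CPM at 19–21 weeks (log2 fold change -4.65 ± 1.02). Cyp2b13 was at 7.44, 50.9, 2.26, 0 and 25.6 CPM and 0, 0.391, 0.122, 1.01 and 0 CPM, with older mouse 4 the highest of its group for both. Cyp2a4, a steroid hydroxylase of female liver named here for its values, was at 245, 282, 54.4, 4.07 and 242 CPM and 0.136, 2.83, 0.729, 26 and 0.595 CPM and did not pass (adjusted p = 0.0538 in edgeR). Young mouse 4 lay below older mouse 4 for Cyp2a4, and the other four young mice lay above all older mice. Hao2, a peroxisomal hydroxyacid oxidase, had 2.41, 25.6, 6.49, 0.794 and 48.5 CPM at 11 weeks and 0.136, 0.195, 0.365, 2.02 and 0.0850 CPM at 19–21 weeks, so that its young mice spanned a range of 0.794 to 48.5 CPM.

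The 3 male-biased genes that passed were higher at 19–21 weeks. Cyp7b1, the oxysterol hydroxylase of the acidic bile acid pathway, rose from 109.7, 43.6, 142, 149 and 104 CPM to 632, 219, 341, 259.7 and 438 CPM (log2 fold change 1.79 ± 0.30, adjusted p = 0.0066 in edgeR) with no overlap of the groups. Control mice had 477 to 975 CPM at 11 weeks and 360.1 to 571 CPM at 19–21 weeks. Susd4, a complement regulator, stood at 2.83, 1.25, 2.19, 7.15 and 1.76 CPM and then at 25.1, 7.82, 21, 4.89 and 24.7 CPM (log2 fold change 2.53 ± 0.49). Older mouse 2 was just above the highest young mouse, and older mouse 4 below it. Hsd3b5, a steroid dehydrogenase of male liver that did not pass (adjusted p = 0.22 in edgeR), was at 3.24, 5.0, 30.6, 96.3 and 18.8 CPM and 132, 83.1, 96, 8.35 and 153 CPM. Young mouse 4 there lay among the older mice and older mouse 4 among the young ones.

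Both counts rested on few mice. That of the female-biased genes, 6, was 3 without 11-week mouse 1 or 5 and 1 without 11-week mouse 2 or 19–21-week mouse 1, A1bg being called in each case, and it was 0 when 10 reads were required in every mouse, since none of the 6 met that. That of the male-biased genes, 3, was 1 without 11-week mouse 1, 2 or 5 or 19–21-week mouse 1, and 7 without 11-week mouse 4. Gstp1 also lost its call without any one of 8 of the control mice in the fit.

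**Figure D4:**
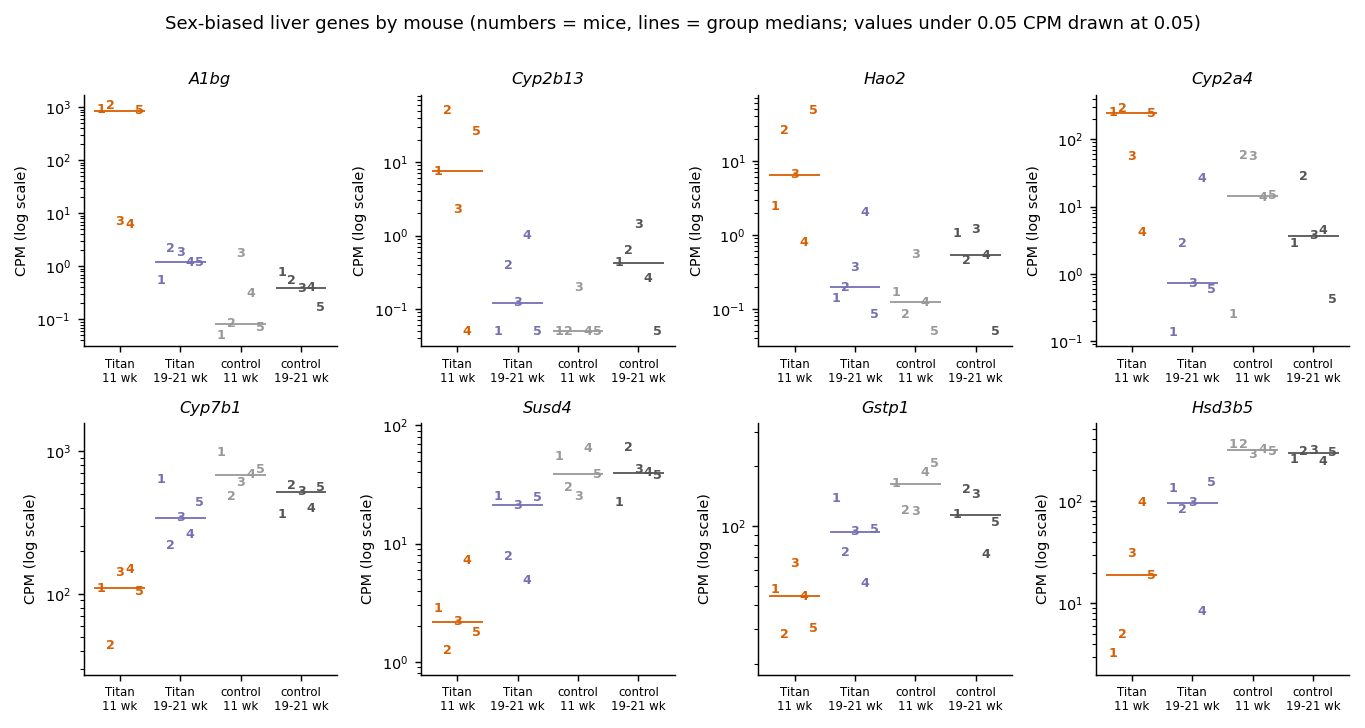
Levels in CPM on a log axis of 4 female-biased genes (upper row) and 4 male-biased genes (lower row) in each of the 20 mice, drawn as mouse numbers, with a line at each group's median and values under 0.05 CPM drawn at 0.05. Young Titan mice 1, 2 and 5 lie far above mice 3 and 4 for A1bg, and Titan mouse 4 of the older group lies apart from its group for Cyp2a4 and Hsd3b5.

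Sterol and drug metabolism moved in single genes. Besides Cyp7b1, 2 of the 22 bile acid genes rose: Cyp27a1, the sterol 27-hydroxylase, with a log2 fold change of 0.46 ± 0.10, and Abcg8, part of the exporter of sterols into bile, with one of 0.53 ± 0.12. In control mice Abcg8 had a similar one, 0.56 (adjusted p = 0.0976 in edgeR), and Cyp27a1 one of -0.16. The median of the bile acid list in Titan was -0.0012, and 0.486% of all tested genes rose. The count of 3 bile acid genes was 1 without 11-week mouse 1, 2 or 3 or 19–21-week mouse 1 or 3. Of 35 tested P450s and regulators of drug metabolism Cyp2e1 rose and Cyp2a12 fell, next to 0.486% and 0.762% of all tested genes. Cyp2a12, a steroid and drug hydroxylase, was nearly level among the young mice (202, 192, 189, 195 and 227 CPM) and stood at 47.3, 37.3, 56.9, 193 and 56.7 CPM in the older ones. Older mouse 4 was at the young level and the other four at 56.9 CPM or less. Its log2 fold change was -1.36 ± 0.31 (adjusted p = 0.0376 in edgeR), and the call was lost without 11-week mouse 1, 2 or 5 or 19–21-week mouse 1, 2, 3 or 5, with adjusted p-values of up to 0.11.

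A single gene passed in each of 3 further lists, while 0.486% of all tested genes rose and 0.762% fell. Col15a1, a basement membrane collagen, fell by 1.45 on the log2 scale, with 22 ± 8.0 CPM in young and 8.10 ± 0.976 CPM in older mice (mean ± SD of 5 mice), alone of 28 extracellular matrix genes, and lost its call without 11-week mouse 1 or 2 (adjusted p up to 0.058 in edgeR). Il6ra, the interleukin-6 receptor, rose with a log2 fold change of 1.07 ± 0.26, alone of 29 acute phase genes, and Mx2 with one of 0.86 ± 0.21, alone of 34 interferon-stimulated genes. At an unadjusted p of 0.05 in edgeR, 9 acute phase genes were higher and 0 lower. The interferon-stimulated list had 4 higher and 1 lower, and the matrix list 0 and 2. Of all tested genes 8.33% were higher and 7.30% lower at that limit. Il6ra lost its call without 11-week mouse 1, 2, 4 or 5 or 19–21-week mouse 1, 2, 3 or 5 or either of 2 control mice, and Mx2 without 11-week mouse 1, 2, 3 or 5 or 19–21-week mouse 1, 2 or 4 or any one of 6 control mice (adjusted p up to 0.14 and 0.16 in edgeR). Acute phase genes lay highest in older mouse 1, at 0.65 above the mean of the 10 mice on the log2 scale, the mouse with most Kupffer cell marker RNA and the lowest levels of Acaca, Fasn and Scd1, and the part of these in the fold changes was not tested.

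No gene passed in the lists of lipid droplets and lipoproteins (31 tested), cholesterol synthesis (25), insulin and growth hormone signalling (32), methionine and folate metabolism (30), amino acid catabolism (32), the circadian clock (18), cell cycle (24), unfolded protein and heat shock response (31) and immediate early genes (14). At an unadjusted p of 0.05, which 8.33% of tested genes passed upward and 7.30% downward, the numbers higher and lower in these lists were 2 and 11, 0 and 1, 2 and 1, 1 and 8, 3 and 3, 2 and 1, 1 and 7, 1 and 0, and 0 and 0, in that order. The cell cycle list had the lowest median among them, -0.52. Its most abundant member, the cell cycle inhibitor gene Cdkn1a, stood at 62.8, 40.6, 24.2, 17.1 and 29.6 CPM at 11 weeks and 6.93, 6.35, 19, 6.41 and 20.8 CPM at 19–21 weeks (adjusted p = 0.0733 in edgeR). Apob, the structural protein of very low density lipoprotein, and Igf1, the growth factor made under growth hormone, had log2 fold changes of -0.01 ± 0.10 and -0.45 ± 0.13. The growth hormone receptor gene Ghr had one of 0.08 ± 0.08. One-carbon genes that the study examined in liver, Gnmt, Bhmt, Cth and Dmgdh, ranged from -0.13 to 0.25.

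The spread within each age was compared as the absolute deviation of each mouse from its group mean on the log2 scale. The median SD of log2 CPM over the tested genes was 0.19 at 11 weeks and 0.23 at 19–21 weeks in Titan, and 0.21 and 0.22 in control mice. With all libraries thinned to the smallest, the Titan values were 0.20 and 0.22. By gene, A1bg alone varied more at 11 weeks (0.00726% of tested genes) and 6 genes varied more at 19–21 weeks (0.0435%) at an adjusted p of 0.05 in limma. At an unadjusted p of 0.05 the numbers were 324 and 1033. Of the 6 genes, 3 had no read in any young Titan mouse, so that their spread could only be wider in the older group. A1bg in turn had at most 22 reads in an older Titan mouse, a level at which the small count added before taking logs narrows the spread. How far this made its young group the wider one was not tested.

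The median SD of log2 CPM over the 16 female-biased genes was 0.80 at 11 weeks and 0.69 at 19–21 weeks, and over the 28 genes of fatty acid synthesis 0.31 and 0.44. The 16 female-biased genes are those that passed the filter on reads. A gene near absent elsewhere passes it through the group where it is high. Their spread and their levels by mouse therefore do not describe all 27 genes of the list. Averaged over its tested members and set against the mean of the 10 Titan mice, the log2 level of the female-biased list was 1.63, 2.01, 0.47, -0.53 and 2.01 in young mice 1 to 5 and -1.83, -0.97, -1.12, -0.34 and -1.34 in older mice 1 to 5. For fatty acid synthesis the same averages were 0.80, 0.57, 0.27, 0.04 and 0.53 and -1.09, 0.02, -0.23, -0.71 and -0.19, and for male-biased genes -0.55, -0.81, -0.06, 0.15 and -0.32 and 0.79, 0.21, 0.22, -0.27 and 0.63. Young mouse 4 was the lowest young mouse for the first 2 lists and the highest for the male-biased one. Older mouse 4 was the highest older mouse for female-biased genes and the lowest for male-biased ones, and older mouse 1 the lowest for fatty acid synthesis.

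The genes that varied more at 19–21 weeks were of another kind. Ceacam2, a cell adhesion molecule with a close relative in Ceacam1, was level at 11 weeks with 25.3, 30.5, 25, 37.2 and 30.3 CPM, and at 19–21 weeks stood at 0.272, 0, 29.4, 22.1 and 0.170 CPM. Older mice 3 and 4 were at the young level and the other three near absence, while all control mice had 40.2 CPM or more. The processed pseudogene Gm10039 went from 9.78, 10.4, 9.85, 11.8 and 16.1 CPM to 7.75, 7.13, 0.365, 0.506 and 0.510 CPM, with older mice 1 and 2 near the young level. Sec61g, a subunit of the protein channel of the endoplasmic reticulum, stood at 1.45, 1.33, 1.39, 1.49 and 1.39 CPM and 1.63, 1.56, 3.65, 1.35 and 3.48 CPM, highest in older mice 3 and 5. The other three were those with no read in any young Titan mouse. In the older ones Ncmap reached 0.850 CPM, in mice 1 and 5 only, and Htr1d and Clec2h had at most 1 read. C1s2, a complement protease, and Lrtm1, not among the 6 and named for their values, each had 1 older mouse near absence: C1s2 stood at 0.136, 11.7, 14.9, 24.7 and 27.4 CPM and Lrtm1 at 2.45, 20.4, 16.3, 0 and 17.3 CPM in older mice 1 to 5, against 28.3, 22.5, 21.5, 10.9 and 23.5 and 15.4, 14, 7.88, 6.55 and 18.2 CPM in young ones. With deviations taken from the group median no gene passed in either direction, and the 6 at 19–21 weeks became 1 after thinning, 1 or 2 without any one young mouse, and 20 to 32 without any one older mouse. The 1 at 11 weeks became 4 without 11-week mouse 5 and 2 without 11-week mouse 3 or 4 or 19–21-week mouse 3 or 4.

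**Figure D5:**
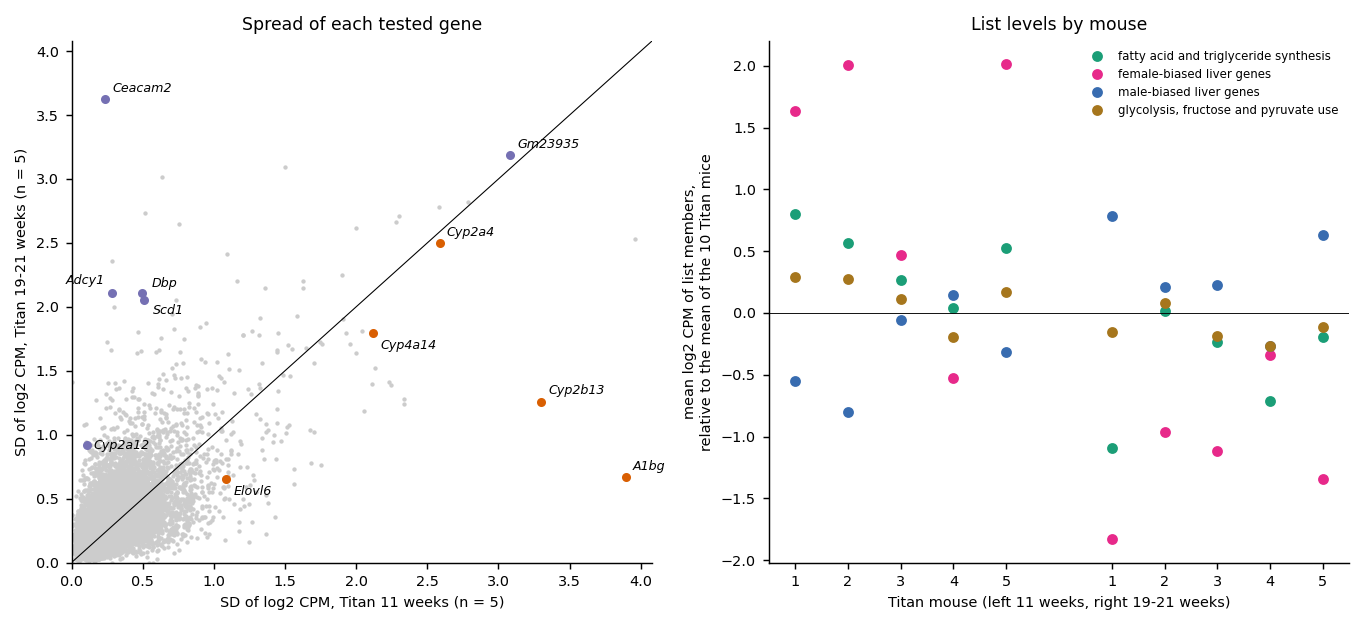
The left panel plots, for each of 13783 tested genes, the SD of log2 CPM over the 5 Titan mice of 19–21 weeks against that over the 5 of 11 weeks, with a line of equality. A1bg lies far below the line and Ceacam2 far above it. The right panel gives the mean log2 CPM of 4 gene lists in each Titan mouse, relative to the mean of the 10, where female-biased genes run from -1.83 to 2.01. Of the female-biased list only the 16 of 27 members that passed the filter on reads are included.

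The controls allow the same ages to be compared in mice without the selection. The fold change from 11 to 19–21 weeks differed between the lines for 1 gene (0.00726% of those tested) in edgeR at an adjusted p of 0.05, and for 1230 at an unadjusted p of 0.05. That gene was Gm6614, a predicted gene picked out here after its values were seen, whose level in Titan was 11.7, 9.77, 17.4, 18.5 and 16.6 CPM at 11 weeks and 27.5, 18.9, 21.5, 20.9 and 29.1 CPM at 19–21 weeks. In control mice it stood at 0.244 to 0.675 CPM at 11 weeks and 3.43 to 7.89 CPM at 19–21 weeks (log2 fold change 3.41), and the age effect in Titan was lower by 2.74 on the log2 scale (adjusted p = 0.0103 in edgeR). Of the genes described above, Grm8, Cyp7b1, Acaca, Elovl6 and Npr2 had adjusted p-values for this difference of 0.0729, 0.0764, 0.0905, 0.0905 and 0.0905 in edgeR, with control log2 fold changes of -0.27, -0.53, 0.16, 0.26 and 0.46. A difference of the age effect between the lines was therefore not shown for these 5 genes. Without 11-week Titan mouse 4 the number of genes that differed was 56, between 1 and 9 without any other single mouse, and 85 with DESeq2.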

How the data were processed

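Gene counts of 20 liver libraries (5 male mice per line and age) were used. The authors depleted rRNA, made directional libraries, mapped the reads to GRCm38 with STAR 2.5.3a (version per the submitters' processing notes) and deposited raw, unnormalized counts per gene. Reads that mapped to several places or overlapped a second gene were not counted. The counts of the reverse strand were used, which hold 96.8% to 97.5% of the strand-assigned reads. Symbols and positions came from GENCODE M21, and the promoter from RefSeq (GRCm38.p6). As in the methods of the study, 1562 Y-chromosome genes and 111 histone genes were left out.

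All 20 mice were fitted in edgeR 4.0.16 (R 4.3.3) with the filterByExpr filter, TMM normalization, the 4 groups as the only factor and quasi-likelihood F tests, two-sided, with Benjamini-Hochberg adjustment over the 13783 genes kept. The SE of a fold change was taken as its absolute value over the root of F. Spread was tested with limma 3.58.1 on absolute deviations of log2 CPM (prior count 2) from group means, in the 10 Titan mice. Scripts were tested on simulated data. Tables and figures used Python 3.11.15 with numpy 2.4.6, pandas 2.3.3 and matplotlib 3.10.9.

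Groups follow the sample titles. Replicates are separate mice. The replicate numbers were not treated as pairs, since correlations of same-numbered young and older Titan mice, as deviations from group means, ran from -0.04 to 0.11. Members and gene lists were chosen with earlier results of these data known. Of the listed symbols, 4 had no single gene in GENCODE M21. Named are, in each direction, the 12 genes of smallest p, up to 4 members called per list and direction, the genes the study names for liver, the 2 most abundant members of lists without a call, and the genes past the spread test (up to 8 per direction). Others are said to be named for their values. Some genes that this rule names are not reported here. Alternatives were DESeq2 1.42.0, RLE size factors, both strands, other filters on reads (none, or 10 in every mouse), the left-out genes kept, a log2 fold change over 0.5, libraries thinned to the smallest, reads outside genes (%) as a covariate, the replicate number as a block, Titan mice alone and each mouse left out. For spread a prior count of 0.5 and deviations from the median were tried.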

Additional observations from a re-analysis of the deposited data

Results flagged for a closer look

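In each Titan group of 5, the mouse farthest out on the log2 scale was compared with the group's range for the 82 genes named by rule. Of 164 groups, 9 had a mouse set apart, and chance alone sets one apart in about 1 of 20 groups. The number set apart was thus close to what chance alone gives, and the mice below are listed for description only.

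Among the 11-week mice, mouse 2 was low for Cyp7b1 (43.6 CPM, the others at 104 to 149). Mouse 4 was high for Cyp27a1 (310.5 CPM, the others at 238 to 244) and low for the pyruvate kinase gene Pklr (179 CPM, the others at 373 to 469). Mouse 5 was low for Ahcy, the enzyme that splits S-adenosylhomocysteine, with 27.1 CPM where the others had 65.4 to 72.2.

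Among the 19–21-week mice, mouse 1 was low for Tkfc (257 CPM) and Fbp1 (388 CPM), next to 357 and 543 CPM in the nearest mice. Mouse 4 was high for Cyp2a12 (193 CPM, the others at most 56.9) and for Morc4 (5.14 CPM, the others at most 3.52). Mouse 2 was high for Cdo1, the cysteine dioxygenase gene, with 1376 CPM where the others had 1135 to 1165.

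The change of Gm6614 with age was flagged because it differed between the lines by the test of that difference, by -2.74 on the log2 scale (Titan minus control, adjusted p = 0.0103 in edgeR). All 5 older control mice (3.43 to 7.89 CPM) lay above all 5 younger ones (0.244 to 0.675 CPM). It passed in 27 of 28 alternatives, with adjusted p-values from 5.27e-08 (DESeq2) to 0.071 (libraries thinned to the smallest, the only one in which it did not pass).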

How the results depend on the processing

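The direction of every named gene that passed held in all alternatives. Of the 58 named genes past the threshold, 22 passed in every alternative that tested them, among them Npr2, Serpine2, Nox4, Cyp2e1, Cyp7b1, Acpp, Pnpla3, A1bg, Acaca, Elovl6 and Cyp4a10, and 291 of 1724 values of the passing genes under an alternative were past it no longer. The genes that rose and fell, 67 and 105, became 163 and 255 with DESeq2 (170 of the 172 among them), 25 and 48 with the percentage of reads outside genes as a covariate, and 22 and 49 with the Titan mice alone. With each Titan mouse left out they ran from 12 to 182 and from 23 to 232, and with each control mouse left out, an alternative added after the data were seen, from 51 to 75 and from 95 to 131. RLE size factors, both strands, no filter, at least 10 reads, the left-out genes kept, thinning and a fold change limit of 0.5 (log2) kept both counts within 1.5 times. The causes of these shifts were not tested.

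The calls among lists of fatty acid synthesis, bile acids, glycolysis, gluconeogenesis, male-biased and female-biased genes, 10, 3, 5, 3, 3 and 6, became 5, 1, 2, 2, 2 and 2 with that covariate and 6, 1, 0, 1, 1 and 5 with the Titan mice alone. DESeq2 called 5 male-biased genes, and 0 female-biased genes passed with at least 10 reads in every mouse, a filter that removes them. Leaving out 1 mouse gave 3 to 10, 1 to 4, 1 to 8, 1 to 4, 1 to 7 and 1 to 8.

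With the replicate number as a replicate block the counts were 29 and 56, and the calls in the 6 lists 6, 1, 2, 3, 2 and 1. The numbers come from the titles and do not pair the mice: only 1 of 5 young mice correlated best with its own number.

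The 1 gene with another age effect in Titan became 85 with DESeq2, 26 without a filter, 0 with at least 10 reads and 0 after thinning, and 1 to 56 with a mouse left out. The 1 and 6 genes with wider spread became 563 and 436 without a filter, where genes with reads in few mice are tested, and 0 and 0 with at least 10 reads or with deviations from the median. The 6 became 3 with both strands and 1 after thinning. Leaving out 1 mouse gave 1 to 4 and 1 to 32. Shallower libraries of the older mice limit what can be seen for genes of few reads.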

Other observations

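Acot4 and Acot2 encode acyl-CoA thioesterases, which release free fatty acids from CoA. Acot4 stood at 145, 142, 76.3, 62.7 and 101 CPM at 11 weeks and 36.2, 38.7, 55.1, 54.6 and 61.5 CPM at 19–21 weeks (log2 fold change -1.10 ± 0.22, adjusted p = 0.0198 in edgeR). Acot2 went from 15.3, 17.7, 8.17, 6.55 and 10 CPM to 3.53, 3.71, 6.20, 4.72 and 5.18 CPM (log2 fold change -1.30 ± 0.28). Neither gene's groups overlapped, and both lost their calls without 11-week mouse 1 or 2 or 19–21-week mouse 1, among others, with adjusted p-values of up to 0.086 for Acot4 and 0.11 for Acot2. Esr1, the oestrogen receptor, fell from a mean of 69.9 ± 14.4 to 41.8 ± 11.2 CPM (SD, n = 5 each, adjusted p = 0.043 in edgeR) and lost its call in 12 of 30 alternatives, those without 11-week mouse 1, 2 or 5 or 19–21-week mouse 1, 2, 3 or 4 among them. These genes were picked out after their values were seen.

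Older Titan mouse 4 stood with the young mice for Adcy1, an adenylate cyclase, as for Cyp2a12: the older mice had 0.408, 2.83, 2.92, 33.2 and 2.72 CPM, the young ones 44.7, 34.8, 27.6, 41.1 and 30.7 CPM and control mice at most 2.53 CPM (adjusted p = 0.101 in edgeR). Dbp, a clock output gene with a strong daily rhythm, was at 9.92, 46.8, 2.55, 1.27 and 1.61 CPM in the older mice, highest in mouse 2, and at 2.07, 1.72, 1.39, 2.48 and 3.66 CPM in the young ones (adjusted p = 0.25 in edgeR). The time of day of sampling is not given for single mice in the sources used here. Gm23935, a small non-coding locus, stood near 8099 and 9991 CPM in young mice 2 and 4 and 7359.9 and 9089 CPM in older mice 3 and 4, and at 224 CPM or less in the other Titan mice.

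Of the histone and Y-chromosome genes left out of the comparison, 1 passed when they were kept, Hist2h4, which was higher at 19–21 weeks (log2 fold change 0.61, adjusted p = 0.035 in edgeR).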
